A study of Oryza sativa Japonica Group with 8 samples.

Results

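The upper part of the rice pistil, which carries the stigma and style, was compared with the lower part, which holds the ovary, by bulk RNA sequencing of whole-cell polyA RNA. There were 6 libraries, 3 of the upper part and 3 of the lower part, out of 8 in the deposited count table; the other 2 were made from sorted nuclei and were not used. The members of each group were taken from the sample titles, and upper and lower libraries with the same replicate number were treated as pairs. The labels do not say if such pairs came from the same pistils. Both groups were wild-type Oryza sativa ssp. japonica of the cultivar Nipponbare, at heading stage and without treatment, grown in climate chambers. The labels do not say at which height the pistil was divided, how many pistils entered a library, or if separate plants were used for each replicate. The p-values therefore measure the spread between these libraries, which may be technical.

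The rice pistil bears a pair of feathery stigmas on short styles above an ovary that encloses a single ovule. The stigma is a secretory epidermal tissue that receives and hydrates pollen. In the ovule the embryo sac forms inside integuments that later become part of the seed coat. Carpel fate depends on the YABBY factor DL together with C class MADS-box factors, and ovule fate on D class MADS-box factors. In bulk tissue, fewer cells of a type and less RNA per cell cannot be told apart.

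The libraries held 24796307 to 35518142 counts. Levels are given as normalised CPM, the usual library-size scaled counts, after TMM, a method that equalises the bulk of genes between libraries, and differences as log2 of upper over lower with the standard error. This error (SE) is the size of the log2 change over the square root of the F statistic of the test used below. It restates that test and is no separate measure of the spread between pairs. In a Spearman correlation over all tested genes, lower replicate 3 resembled the upper libraries more (mean rho 0.919) than the other libraries of its own part (0.878). The 15 carpel and ovule identity genes summed to 3222 to 5043 CPM over the 6 libraries. This sum, which includes genes active in other floral organs, does not tell the parts of the pistil apart. Of other floral organs, the 3 lodicule and stamen genes summed to 1185, 812 and 882 CPM in upper replicates 1 to 3 and to 490, 332 and 1028 CPM in lower replicates 1 to 3. Genes of the anther wall and tapetum were low throughout, with a summed level of 3.77 to 7.03 CPM in the 6 libraries, and 3 of 6 members were too low to test. The pollen beta-expansins OsEXPB9 and OsEXPB10, relatives of grass pollen allergens that loosen cell walls, were not low. Their summed level was 1705, 1759 and 5466 CPM in upper replicates 1 to 3 and 33.3, 342 and 2211 CPM in lower replicates 1 to 3. Replicate 3 was thus the highest of each part, and its lower library exceeded the first 2 upper libraries. The part of pollen RNA in the differences below was not tested.

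Of 29848 genes tested, 1529 were higher in the upper part and 902 were lower there, at an adjusted p below 0.05 and a change of at least 2-fold (edgeR quasi-likelihood test with replicate number as block, Benjamini-Hochberg adjustment). These genes, upper-high and lower-high below, are 5.12% and 3.02% of those tested. The upper-high genes differed by more: 822 of them, or 53.8%, were at least 4-fold apart, against 156 of the lower-high genes, or 17.3%. The median log2 change was 2.11 for the first set and -1.51 for the second, and -0.01 over all tested genes. Mean levels of 100 CPM or more in the higher part were reached by 266 upper-high and 29 lower-high genes. A mean below 1 CPM in the other part was found for 288 upper-high and 42 lower-high genes. The 3 libraries of one part all lay above the 3 of the other in 1207 of the upper-high and 602 of the lower-high genes, where 10.3% of all tested genes did so in each direction.

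Both counts depended on single replicates and on scaling. Without replicate 2 they were 98 (0.325% of genes tested) and 0, with 3655 and 2603 genes at an unadjusted p below 0.05. Without replicate 1 they were 2284 (7.56%) and 1265 (4.18%). Without replicate 3 they were 2289 (7.62%) and 644 (2.14%), and 1105 and 540 of the genes called with all replicates were called there too. With library size as the only scaling they were 1294 and 2993, and the median log2 change of all genes then moved to -0.34. Without the replicate block they were 242 (0.811%) and 1 (0.00335%).

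**Figure D1:**
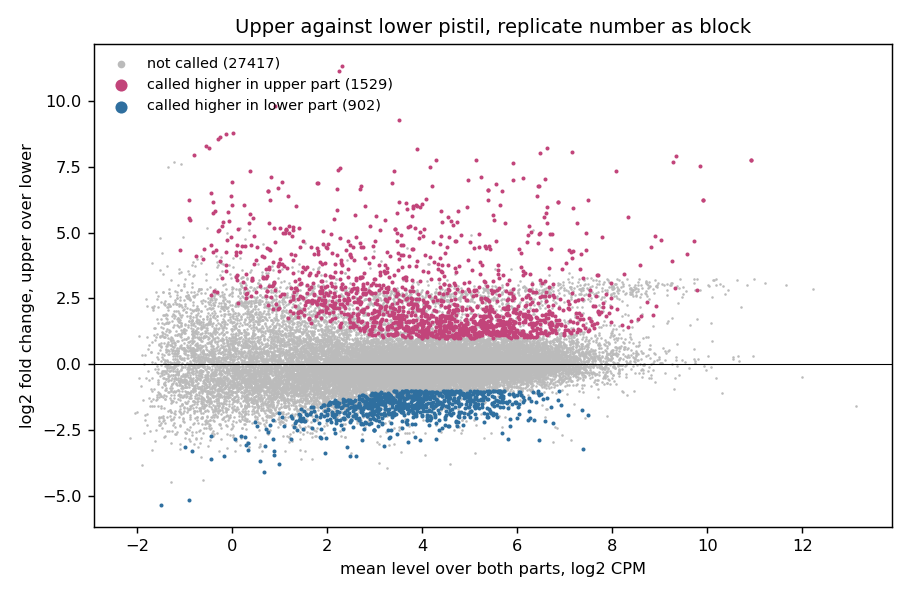
Log2 fold change of upper over lower pistil (vertical axis) against the mean level over both parts in log2 CPM (horizontal axis) for each of the 29848 tested genes, with the 1529 upper-high and 902 lower-high genes in colour. The upper-high genes reach further from 0, and a grey band of uncalled genes lies above 2 at the highest levels.

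For genes of known function, 269 of 297 loci in 34 lists could be tested, and of these 24 (8.92%) were called higher in the upper part, while 16 (5.95%) were called in the other direction. All lists, not only those marked below as added, were chosen with earlier results of these data known. The shares called in them are therefore no independent support for a trait of any group. All 40 kept their direction when any 1 replicate was left out. None of the 40 was called without replicate 2, where their adjusted p ranged from 0.0626 to 0.245 and their log2 change was 0.726 to 1.24 times that with all replicates. Without replicate 1, 35 of the 40 were called, and without replicate 3, 31 were. Without the replicate block 6 of the 40 were called (OsMADS1, CEBiP, OsRbohB, OsCIN1, OsCHS1 and OsCHI), and the adjusted p of the 40 ranged from 0.0173 to 0.444.

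Among 15 carpel and ovule identity genes, 3 (20%) were called upper-high and 1 (6.67%) lower-high, against 5.12% and 3.02% of all tested genes. DL (Os03g0215200), the YABBY factor that specifies the carpel, stood at 262, 477 and 373 CPM in upper replicates 1 to 3 and at 61.9, 114 and 52.3 CPM in lower replicates 1 to 3. The lowest upper library was above the highest lower one, and the log2 change was 2.32 ± 0.32 (SE, n = 3 pairs, adjusted p = 0.0195 by edgeR).

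OsMADS1 (Os03g0215400), a SEPALLATA-class factor that sets the identity of lemma, palea and floral meristem, was at 250, 213 and 271 CPM in the upper libraries and 36.8, 29.6 and 46.0 CPM in the lower ones. The groups were well apart, with little spread within either, and the log2 change was 2.72 ± 0.24 (SE, adjusted p = 0.00878 by edgeR). OsMADS34, another SEPALLATA-class factor, known for its role in panicle and spikelet form, was at 42.8, 84.1 and 64.4 CPM in the upper and 13.9, 6.81 and 17.8 CPM in the lower libraries. Its groups did not overlap, and the log2 change was 2.35 ± 0.43 (SE, adjusted p = 0.0346 by edgeR).

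In the opposite direction, OsMADS17 (Os04g0580700), an AGL6-type factor, was at 44.4, 18.4 and 11.5 CPM in the upper and 85.5, 55.7 and 55.8 CPM in the lower libraries. Every lower library was above every upper one, and the log2 change was -1.60 ± 0.29 (SE, adjusted p = 0.0321 by edgeR). Its paralog OsMADS6 had a log2 change of -1.50 and an adjusted p of 0.0660 in the same edgeR fit, and was not called.

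The C and D class genes gave values that did not pass the test. OsMADS3 (Os01g0201700), a C class factor of stamen and carpel identity, was at 740, 507 and 711 CPM in the upper and 514, 425 and 487 CPM in the lower libraries, with a log2 change of 0.44 ± 0.35 (SE). OsMADS58, the other C class factor, was at 1044, 451 and 560 CPM in the upper and 577, 323 and 504 CPM in the lower libraries, with a log2 change of 0.50 ± 0.37 (SE). For both the groups overlapped.

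OsMADS13 (Os12g0207000), the D class factor of ovule identity, was at 323, 182 and 209 CPM in the upper and 569, 454 and 384 CPM in the lower libraries. All 3 lower values were above all 3 upper values, yet with a log2 change of -1.005 ± 0.31 (SE) its adjusted p was 0.0923 in edgeR. OsMADS21, its D class relative, was at 115, 40.9 and 70.8 CPM in the upper and 150, 159 and 139 CPM in the lower libraries. These groups did not overlap either, with a log2 change of -1.10 ± 0.35 (SE, adjusted p = 0.0959 by edgeR).

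OsMADS29, a B-sister factor needed for degeneration of ovule tissue in the young seed, was at 38.0, 8.60 and 1.71 CPM in the upper and 71.2, 57.6 and 57.4 CPM in the lower libraries. The lower libraries were close to each other while the upper ones differed widely, and the log2 change of -2.80 ± 0.79 (SE) had an adjusted p of 0.0782 in edgeR. The SEPALLATA-class OsMADS7 and OsMADS8 had log2 changes of 0.14 and 0.04. The median over the 15 genes was -0.67. Without replicate 1, 3 of these genes were upper-high and 7 lower-high, and without replicate 2 none was called.

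**Figure D2:**
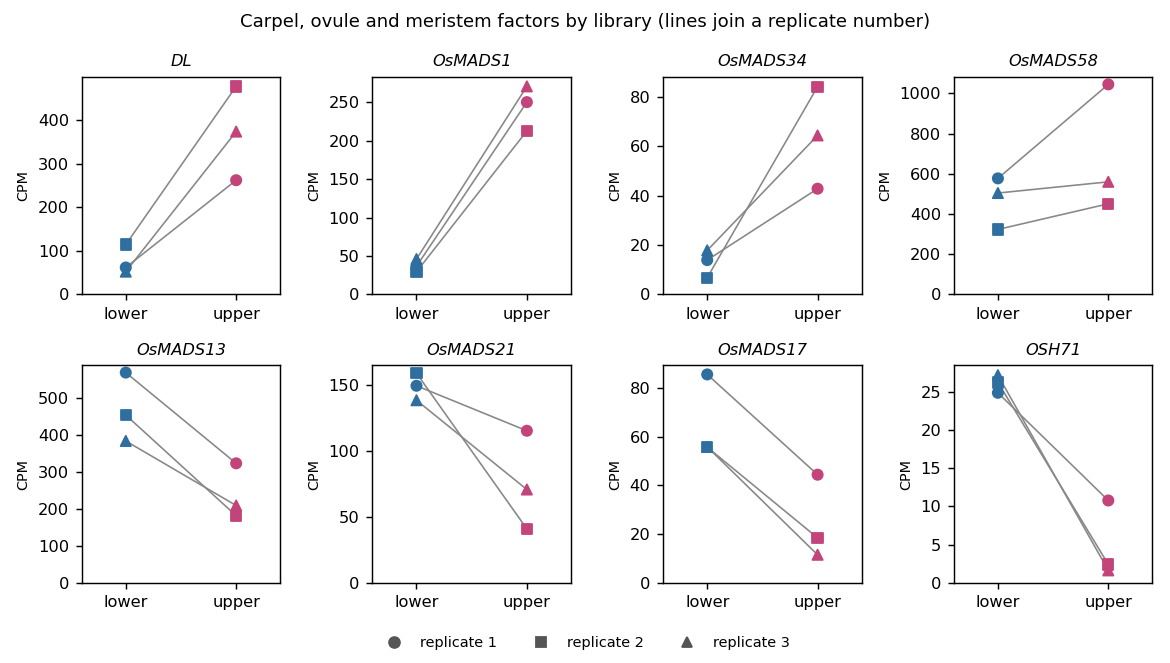
Level in CPM (vertical axis) of 8 carpel, ovule and meristem genes in each lower and upper library (horizontal axis), with lines joining libraries of one replicate number. DL, OsMADS1 and OsMADS34 lie higher in all 3 upper libraries, while OsMADS17 and OSH71 lie higher in all 3 lower libraries.

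Class I KNOX genes, homeobox factors that keep meristem cells undetermined, had their higher values in the lower part in 5 of 6 cases. Their median log2 change was -2.60, and 1 gene (16.7%) was called, against 3.02% of all tested genes. The KNOX list was added after values were seen. OSH71 (Os05g0129700) was at 10.8, 2.40 and 1.62 CPM in the upper and 24.9, 26.2 and 27.2 CPM in the lower libraries. The lower libraries were nearly equal and all above the upper ones, with a log2 change of -2.89 ± 0.60 (SE, adjusted p = 0.0444 by edgeR). OSH1, OSH3, OSH6 and OSH15 had log2 changes of -1.65, -3.37, -2.61 and -2.60, with adjusted p from 0.0590 to 0.0947 in edgeR. OSH43 was the exception, at 0.86. Without replicate 1, 5 of the 6 were called higher in the lower part, and without replicate 2 none was. FON1, the receptor kinase that limits floral meristem size, had a log2 change of -1.68 and an adjusted p of 0.0731 in edgeR.

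Growth-regulating factors, transcription factors that promote cell proliferation in young organs, were called higher in the lower part for 5 of 9 tested genes (55.6%). The share over all tested genes was 3.02%. This list was added after values were seen, so its count is no independent support for a trait of the family. OsGRF4 (Os02g0701300), known for larger grains when released from its microRNA, was at 2.94, 3.02 and 1.80 CPM in the upper and 8.79, 11.4 and 8.21 CPM in the lower libraries. The log2 change was -1.89 ± 0.28 (SE, adjusted p = 0.0229 by edgeR), and the groups did not overlap. OsGRF3 was at 8.80, 7.52 and 5.03 CPM in the upper and 21.8, 29.1 and 17.1 CPM in the lower libraries, with a log2 change of -1.68 ± 0.22 (SE, adjusted p = 0.0186 by edgeR). OsGRF7, OsGRF1 and OsGRF5 had log2 changes of -1.57, -1.49 and -1.05 and were called as well. OsGRF6, OsGRF8, OsGRF10 and OsGRF11 were not called, at -0.57, 0.97, -0.42 and 0.08. Without replicate 1 or without replicate 3, 4 were called, and without replicate 2 none was.

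All 13 genes of the cell cycle and DNA replication had log2 changes below 0. Of these, 5 (38.5%) were called higher in the lower part, against 3.02% of all tested genes. This list too was chosen with earlier results of these data known. Their median log2 change was -1.34. MCM2 (Os11g0484300), a subunit of the helicase that unwinds replication origins, was at 10.2, 19.8 and 5.26 CPM in the upper and 30.2, 92.0 and 17.7 CPM in the lower libraries. Within each replicate number the lower library was higher, although the groups as a whole overlapped, and the log2 change was -1.85 ± 0.21 (SE, adjusted p = 0.0136 by edgeR).

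The helicase subunit MCM5 was at 28.1, 20.9 and 8.08 CPM in the upper and 50.8, 81.9 and 58.1 CPM in the lower libraries, with a log2 change of -1.88 ± 0.39 (SE, adjusted p = 0.0451 by edgeR). MCM7 was at 7.79, 10.6 and 3.28 CPM in the upper and 17.5, 47.2 and 20.6 CPM in the lower libraries, with a log2 change of -1.98 ± 0.33 (SE, adjusted p = 0.0274 by edgeR). For both, every lower library was above every upper one. The mitotic cyclins CYCB1;1 and CYCB2;1 were called with log2 changes of -1.34 and -1.20, and their groups overlapped, with replicate 3 the lowest in each part.

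MCM3, MCM6, CYCB2;2 and the polymerase clamp PCNA had log2 changes of -1.99, -2.16, -1.98 and -1.20 without being called, with adjusted p from 0.0571 to 0.0711 in edgeR. CDKA;1 and CDKA;2, kinases present in dividing and non-dividing cells alike, had log2 changes of -0.08 and -0.21. Without replicate 1, 9 of the 13 were called higher in the lower part, and without replicate 3, 6 were. Without replicate 2 none was called, with adjusted p from 0.0985 to 0.189 for the 5.

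Among 21 genes of the germline, DNA methylation and ARGONAUTE families, 3 (14.3%) were called, all higher in the lower part. The share over all tested genes was 3.02%. The DNA methylation and ARGONAUTE lists were added after values were seen. OsCMT3a (Os10g0104900), a chromomethylase that maintains CHG methylation, was at 6.59, 9.34 and 0.784 CPM in the upper and 22.6, 40.7 and 6.64 CPM in the lower libraries. Replicate 3 was low in both parts, so that the groups overlapped, while each lower library exceeded the upper one of its number. The log2 change was -2.26 ± 0.30 (SE, adjusted p = 0.0187 by edgeR).

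PNH1, an ARGONAUTE protein of shoot apical meristem and leaf formation, was at 35.4, 21.7 and 7.89 CPM in the upper and 70.4, 103 and 44.0 CPM in the lower libraries. The groups did not overlap, and the log2 change was -1.91 ± 0.33 (SE, adjusted p = 0.0303 by edgeR). ZEP1, a central element protein of the synaptonemal complex, was called with a log2 change of -1.13. The other meiotic genes were not called: PAIR1, PAIR2 and PAIR3 had log2 changes of -0.62, -0.45 and -0.28, and OsDMC1A had 0.90. MEL1, the germline ARGONAUTE, was at 2.63, 15.3 and 3.00 CPM in the upper and 2.00, 1.89 and 2.32 CPM in the lower libraries. One upper library was high and the log2 change of 1.25 ± 0.63 (SE) had an adjusted p of 0.223 in edgeR. Without replicate 1 or without replicate 3, 2 of the 3 calls were kept, and without replicate 2 none was.

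In the upper part the largest change among genes of known function was that of OsCHS1 (Os11g0530600), chalcone synthase, which makes the first flavonoid. It was at 143, 308 and 114 CPM in the upper and 4.10, 1.48 and 0.236 CPM in the lower libraries. No lower library came near the upper ones, and the log2 change was 7.05 ± 0.83 (SE, adjusted p = 0.0146 by edgeR). With 127, 58 and 6 counts in lower replicates 1 to 3, OsCHS1 would not have passed the low-count filter on the lower libraries alone. OsCHI, chalcone isomerase of the next step, was at 251, 386 and 209 CPM in the upper and 57.6, 45.8 and 44.6 CPM in the lower libraries, with a log2 change of 2.47 ± 0.31 (SE, adjusted p = 0.0173 by edgeR). OsPAL1, phenylalanine ammonia-lyase at the entry to the phenylpropanoids, had a log2 change of 1.13 and an adjusted p of 0.0503 in edgeR. Os4CL3 and OsPAL4 had 0.38 and -0.43. Neither OsCHS1 nor OsCHI was called without replicate 2, at adjusted p of 0.0914 and 0.112 in edgeR. Of the lignin genes OsCOMT had a log2 change of 1.90 and OsCAD2 of 0.89, and neither was called.

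Of 21 tested immune genes, 8 (38.1%) were called upper-high, against 5.12% of all tested genes. They were 4 of 9 in the defence list, 2 of 8 in immune receptors and signalling, and 2 of 4 diterpenoid phytoalexin genes. The median log2 changes of these lists were 2.38, 0.22 and 2.87, so the signalling list as a whole differed little. That list was added after values were seen. CEBiP (Os03g0133400), the receptor that binds fungal chitin, was at 206, 136 and 195 CPM in the upper and 21.9, 19.0 and 29.0 CPM in the lower libraries. The groups were far apart, and the log2 change was 2.94 ± 0.23 (SE, adjusted p = 0.00831 by edgeR). OsCERK1, the receptor kinase that works with CEBiP, was at 62.0, 60.5 and 78.4 CPM in the upper and 73.8, 68.8 and 67.1 CPM in the lower libraries. Its groups overlapped, with a log2 change of -0.07 ± 0.19 (SE).

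OsNPR1 (Os01g0194300), the regulator of salicylic acid responses, was at 171, 521 and 294 CPM in the upper and 33.6, 49.0 and 46.3 CPM in the lower libraries. All upper libraries were higher, replicate 2 most of all, and the log2 change was 2.81 ± 0.33 (SE, adjusted p = 0.0148 by edgeR). OsRbohB, an NADPH oxidase that makes superoxide outside the cell, was at 128, 210 and 105 CPM in the upper and 22.03, 18.7 and 22.9 CPM in the lower libraries. The log2 change was 2.74 ± 0.31 (SE, adjusted p = 0.0142 by edgeR), and the groups did not overlap. OsMPK3, a MAP kinase of immune signalling, had a log2 change of 1.00, at the border of the 2-fold threshold.

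The pathogenesis-related gene PBZ1 was at 61.5, 7.73 and 5.86 CPM in the upper and 1.42, 0.179 and 1.92 CPM in the lower libraries. Upper replicate 1 was far above the rest, and the log2 change was 4.12 ± 0.89 (SE, adjusted p = 0.0476 by edgeR). With 44, 7 and 49 counts in lower replicates 1 to 3, PBZ1 would not have passed the low-count filter on the lower libraries alone. The chitinase Cht3 was at 9.18, 4.10 and 51.6 CPM in the upper and 0.808, 1.64 and 7.94 CPM in the lower libraries, with replicate 3 the highest in both parts and a log2 change of 2.49 ± 0.44 (SE, adjusted p = 0.0318 by edgeR). Cht1, next to it in locus order, had a log2 change of 2.38 and an adjusted p of 0.0510 in edgeR.

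Of 9 diterpenoid phytoalexin genes, which make momilactones and phytocassanes, 4 could be tested. OsKSL4 and CYP76M8 were called, with log2 changes of 3.61 and 3.99 at levels of at most 5.50 CPM. In lower replicates 1 to 3, OsKSL4 had 6, 1 and 18 counts and CYP76M8 had 4, 0 and 3. Neither would have passed the low-count filter on the lower libraries alone, so a call toward the lower part was hardly possible for them. The momilactone synthase gene OsMAS was at 34.1 CPM in upper replicate 1 and at most 0.877 CPM in the other 5 libraries, and was not tested. The momilactone genes OsCPS4, CYP99A2 and CYP99A3 were also highest in upper replicate 1, at 4.92, 1.63 and 1.98 CPM, and were not tested. Without replicate 1, PBZ1, OsKSL4 and CYP76M8 were no longer called, and without replicate 3, Cht3 and OsMPK3 were not. Without replicate 2 none of the 8 was called, at adjusted p from 0.0626 to 0.210.

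**Figure D3:**
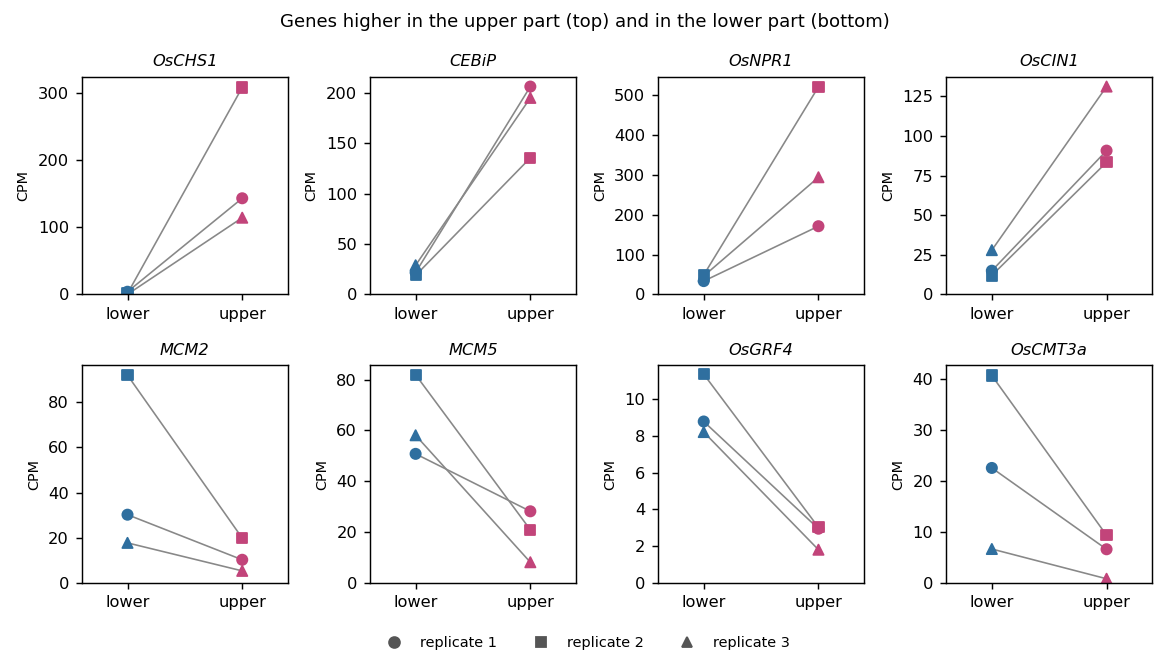
Level in CPM (vertical axis) of 4 genes called higher in the upper part (OsCHS1, CEBiP, OsNPR1, OsCIN1) and 4 called higher in the lower part (MCM2, MCM5, OsGRF4, OsCMT3a), by library, with lines joining libraries of one replicate number. Every line rises toward the upper part in the top row and falls in the bottom row.

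Of 22 tested genes for sugar transport and cleavage, 4 (18.2%) were higher in the upper part and none in the lower part. The shares called over all tested genes were 5.12% and 3.02%. OsCIN1 (Os02g0534400), a cell wall invertase that splits sucrose outside the cell, was at 90.8, 83.4 and 131 CPM in the upper and 15.0, 12.03 and 28.0 CPM in the lower libraries. Its groups did not overlap, and the log2 change was 2.54 ± 0.20 (SE, adjusted p = 0.00831 by edgeR). OsSWEET2a, of the SWEET sugar transporter family, was at 61.8, 34.7 and 65.2 CPM in the upper and 10.6, 12.4 and 21.4 CPM in the lower libraries, with a log2 change of 1.87 ± 0.26 (SE, adjusted p = 0.0206 by edgeR).

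OsSWEET14, a plasma membrane sucrose exporter, was at 71.5, 71.9 and 94.6 CPM in the upper and 16.895, 20.8 and 57.6 CPM in the lower libraries. Lower replicate 3 came closest to the upper libraries, and the log2 change was 1.53 ± 0.30 (SE, adjusted p = 0.0403 by edgeR). The sucrose synthase gene OsSUS3 was at 60.5, 463 and 61.5 CPM in the upper and 23.7, 36.5 and 9.94 CPM in the lower libraries, with upper replicate 2 far above the rest and a log2 change of 2.55 ± 0.48 (SE, adjusted p = 0.0362 by edgeR). OsSUS1 passed the adjusted p, at 0.0498 in edgeR, with a log2 change of -0.98, short of 2-fold. The median of the 22 was 0.11 (-0.21 when scaled by library size alone), and the sucrose transporters OsSUT1, OsSUT2, OsSUT4 and OsSUT5 had log2 changes of 0.03, -0.59, -0.06 and 0.47. Without replicate 3 OsSUS3 was not called, and without replicate 2 none of the 4 was, at adjusted p from 0.0688 to 0.175.

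Of 52 tested hormone genes outside the gibberellin list, 5 (9.62%) were called upper-high and 1 (1.92%) lower-high. The shares over all tested genes were 5.12% and 3.02%, and none of the 9 gibberellin genes was called. So few calls give no result on hormone genes as a group. The ethylene synthesis list among them was added after values were seen. OsGH3-2 (Os01g0764800), an enzyme that conjugates auxin to amino acids, was at 43.2, 42.9 and 93.9 CPM in the upper and 2.39, 4.97 and 30.6 CPM in the lower libraries. The groups did not overlap, with replicate 3 the highest of each, and the log2 change was 2.94 ± 0.51 (SE, adjusted p = 0.0301 by edgeR). OsPIN2, an auxin efflux carrier, had a log2 change of 1.24 ± 0.22 (SE, adjusted p = 0.0317 by edgeR). Its counts were within 1% of those of the neighbouring locus Os06g0660300, so the reads may be shared and the value is uncertain.

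BRD1 (Os03g0602300), a brassinosteroid C-6 oxidase, was at 141, 128 and 189 CPM in the upper and 48.7, 25.7 and 51.4 CPM in the lower libraries, with a log2 change of 1.90 ± 0.24 (SE, adjusted p = 0.0173 by edgeR). OsCOI1a, a jasmonate receptor, was at 155, 280 and 210 CPM in the upper and 84.2, 91.0 and 93.8 CPM in the lower libraries, with a log2 change of 1.22 ± 0.27 (SE, adjusted p = 0.0483 by edgeR). For both, all upper libraries were above all lower ones. In the jasmonate list 15 of 16 tested genes had log2 changes above 0 (13 when scaled by library size alone), with a median of 0.94.

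The type-A cytokinin response regulator OsRR9 was at 39.0, 14.9 and 35.8 CPM in the upper and 6.69, 8.34 and 11.9 CPM in the lower libraries, with a log2 change of 1.65 ± 0.35 (SE, adjusted p = 0.0468 by edgeR). Its close paralog OsRR10 had 1.60 and was not called, and reads may be divided between these genes. OsACS1, an ACC synthase of ethylene synthesis, was the gene higher in the lower part, at 0.736, 0.770 and 1.20 CPM in the upper and 2.62, 3.48 and 5.42 CPM in the lower libraries, with a log2 change of -2.06 ± 0.38 (SE, adjusted p = 0.0347 by edgeR). OsCKX1, a cytokinin oxidase, was at 15.8, 0.0616 and 3.97 CPM in the upper and at most 0.0646 CPM in the lower libraries. It was too low in upper replicate 2 to be tested with all libraries, and was called without that replicate at an adjusted p of 0.0459 in edgeR. Without replicate 3, OsCOI1a, OsRR9 and OsACS1 were not called, and without replicate 2 none of the 6 was, at adjusted p from 0.0944 to 0.245.

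Of 13 tested expansins, 1 was called: OsEXPA6, an alpha-expansin, was at 11.9, 26.1 and 34.7 CPM in the upper and 3.26, 6.35 and 4.52 CPM in the lower libraries. Its groups did not overlap, and the log2 change was 2.28 ± 0.28 (SE, adjusted p = 0.0166 by edgeR). Of 15 tested aquaporins, 1 was called: OsPIP1;3, of the plasma membrane type, was at 8.64, 14.5 and 13.1 CPM in the upper and 1.16, 3.40 and 6.25 CPM in the lower libraries, with a log2 change of 1.99 ± 0.40 (SE, adjusted p = 0.0417 by edgeR). Both calls were absent without replicate 2, at adjusted p of 0.0977 and 0.172 in edgeR. Together, 2 of the 28 tested genes (7.14%) were called upper-high, near the 5.12% of all tested genes. The counts are therefore no result on either family.

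A large group of genes was abundant in the upper part and in lower replicate 3, and low in lower replicates 1 and 2. Lower replicate 3 was at least 5 times the mean of the other lower libraries, and at 10 CPM or more, for 971 genes. The same held for 3 genes in lower replicate 1 and 58 in lower replicate 2, and for 56 to 81 in each upper library. Of the 971 genes, 966 had log2 changes above 0. Upper-high calls were made for 75 of them, a share above the 5.12% of all tested genes. A further 728 changed 4-fold or more toward the upper part and were not called. Among the 473 genes that were at least 4-fold higher at 100 CPM or more in the upper part, 334 were not called, and 327 of those had this profile.

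OsEXPB9 (Os10g0548600), the pollen beta-expansin, was at 1636, 1671 and 5193 CPM in the upper and 31.1, 326 and 2065 CPM in the lower libraries. The groups overlapped through lower replicate 3, and the log2 change was 2.99 ± 1.05 (SE, adjusted p = 0.114 by edgeR). Without replicate 3 it was 3.97 with an adjusted p of 0.0275 in edgeR, and the gene was called. OsEXPB10 was at 68.4, 87.8 and 272 CPM in the upper and 2.13, 15.6 and 145 CPM in the lower libraries, in the same order.

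Of the 9 gibberellin genes, 4 had this profile. OsGA20ox3 (Os07g0169700), a gibberellin 20-oxidase, was at 197, 319 and 544 CPM in the upper and 11.4, 35.6 and 477 CPM in the lower libraries, with a log2 change of 2.58 ± 0.87 (SE, adjusted p = 0.104 by edgeR). Lower replicate 3 was 20.3 times the mean of the other lower libraries. OsKAO, an oxidase of the kaurenoic acid step, was at 92.3, 254 and 258 CPM in the upper and 4.65, 28.5 and 180 CPM in the lower libraries. OsCPS1, of the first committed step, was at 80.5, 69.6 and 151 CPM in the upper and 3.91, 16.89 and 137 CPM in the lower libraries. EUI1, which inactivates gibberellins, was at 8.33, 9.74 and 21.7 CPM in the upper and 0.258, 1.08 and 12.9 CPM in the lower libraries. In each of these genes lower replicate 3 lay within the range of the upper libraries. All 9 genes of the list had log2 changes above 0 (7 when scaled by library size alone), 6 at an unadjusted p below 0.05, and none was called by edgeR with all replicates. DESeq2 called OsCPS1, OsKAO, OsGA20ox3 and EUI1, and so did edgeR without replicate 3.

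The gibberellin receptor GID1 differed from these, at 33.3, 43.5 and 57.6 CPM in the upper and 19.4, 28.5 and 26.8 CPM in the lower libraries. Its groups did not overlap and its adjusted p was 0.0485 in edgeR, with a log2 change of 0.83, short of 2-fold. SLR1, the DELLA repressor, had 0.19. Wx, the granule-bound starch synthase that is active in pollen and endosperm, was at 9.80, 56.1 and 49.5 CPM in the upper and 0.775, 5.25 and 45.3 CPM in the lower libraries, with a log2 change of 2.40 and an adjusted p of 0.0992 in edgeR. The other 5 starch genes lay between -0.71 and 0.35. Of the lodicule and stamen genes, OsMADS16 was at 734, 270 and 481 CPM in the upper and 269, 161 and 699 CPM in the lower libraries, and OsMADS2 at 333, 385 and 314 CPM in the upper and 141, 96.1 and 247 CPM in the lower libraries. Both are B class factors, lower replicate 3 was the highest lower library for each, and neither was called with all replicates.

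Replicate 3 was also the extreme library of both parts for many called genes. Among the 1529 upper-high genes, lower replicate 3 was the highest lower library in 1014 and upper replicate 3 the highest upper library in 890. Among the 902 lower-high genes, upper replicate 3 was the lowest upper library in 768 and lower replicate 3 the lowest lower library in 694. These counts cover called genes only and were not taken over all tested genes. A test with replicate number as block favours genes whose same-numbered libraries move together, so the counts may not hold for other genes. Replicate 2 stood apart in photosynthesis genes. CAB1R, a light-harvesting protein, was at 63.3, 243 and 69.5 CPM in the upper and 34.6, 500 and 46.2 CPM in the lower libraries, and RCA, Rubisco activase, was at 20.7, 84.3 and 28.9 CPM in the upper and 25.5, 130 and 28.6 CPM in the lower libraries. Replicate 2 was the highest of both parts for each, and none of the 10 photosynthesis genes was called. Where the division of the pistil fell in each replicate was not tested.

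**Figure D4:**
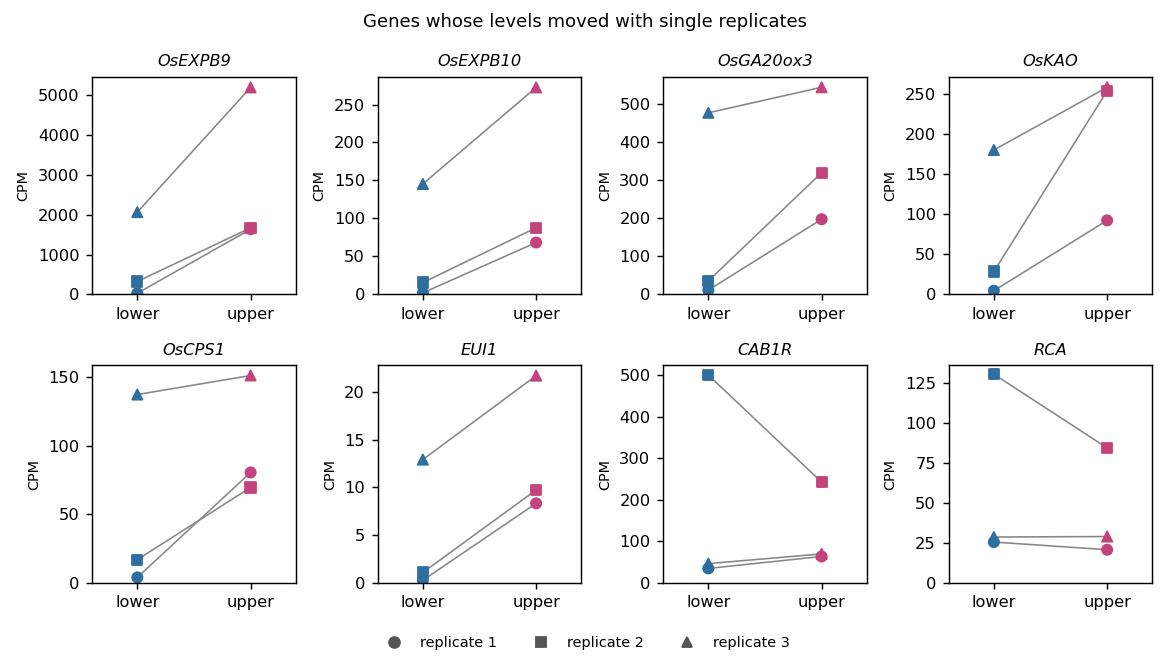
Level in CPM (vertical axis) by library of 6 genes that were high in lower replicate 3 (OsEXPB9, OsEXPB10, OsGA20ox3, OsKAO, OsCPS1, EUI1) and 2 that were high in replicate 2 of both parts (CAB1R, RCA), with lines joining libraries of one replicate number. For OsGA20ox3 lower replicate 3, at 477 CPM, is above upper replicates 1 and 2.

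Several lists held no called gene in the main comparison. The epidermal ROC factors ROC1 and ROC5, homeobox genes of the outer cell layer, had log2 changes of 0.32 and -0.19, and the 7 ROC genes tested had a median of 0.29 (-0.03 when scaled by library size alone). The clock genes OsGI and OsPRR73 had log2 changes of -0.15 and 0.42, and those of the heat shock genes HSP18.0 and HSP101 were 0.09 and -0.18. The SPL factors OsSPL6 and OsSPL12 had log2 changes of 0.09 and 0.06. Of 5 YABBY genes tested DL alone was called, of 6 grain and stigma size genes OsGRF4 alone, and of 6 secondary wall genes none. The HD-Zip III genes OSHB1 and OSHB2, which act in organ polarity, had -0.54 and -0.31. A p that missed the threshold does not show that these genes were equal in both parts. With 3 pairs, simulated 2-fold changes were called in 4 of 50 cases and 4-fold changes in 39 of 50. The simulation changed well-counted genes only, and held no library that departs across many genes as lower replicate 3 does. In the data, 139 of 473 genes at least 4-fold higher, at 100 CPM or more in the upper part, were called. The simulated rates may therefore be too high for these libraries.

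**Figure D5:**
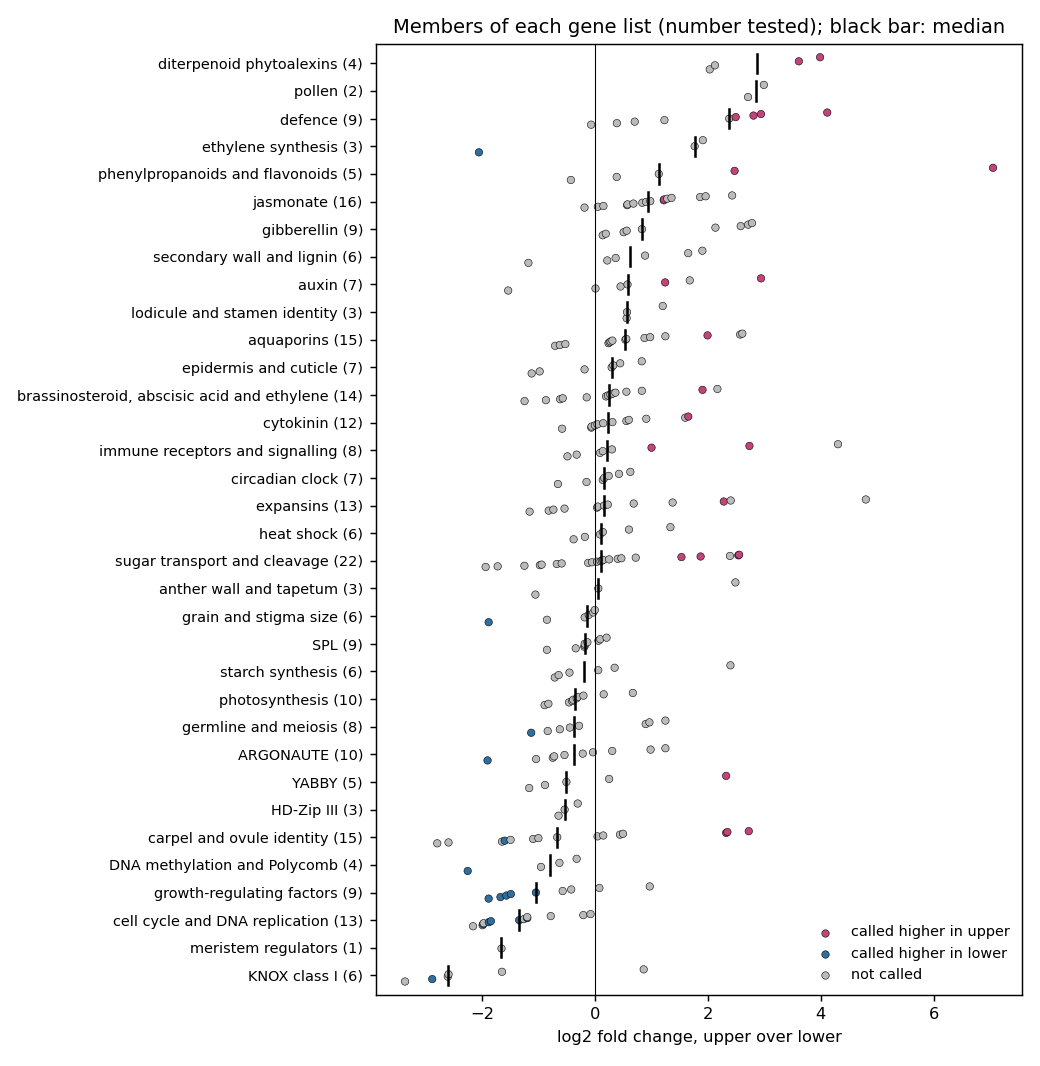
Log2 fold change of upper over lower (horizontal axis) for the tested members of each gene list (rows, with the number tested), coloured by call, with a black bar at each list's median. The medians run from -2.60 for the class I KNOX genes to 2.87 for the diterpenoid phytoalexins, and the cell cycle list lies wholly below 0. The called genes OsKSL4, CYP76M8, OsCHS1 and PBZ1 would not have passed the low-count filter on the lower libraries alone.

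The most changed loci that reached a mean of 10 CPM in either part are given by identifier. Os02g0801255 was at 41.8, 9.12 and 17.5 CPM in the upper libraries, where it had 1755 counts in all, against 3 counts in the lower ones. Scaled by the total counts of each part, without TMM, this is a ratio of 561. Its 95% interval of 192 to 2722 covers counting error only. Os01g0520340 was at 3292, 3916 and 4417 CPM in the upper and 20.5, 5.09 and 49.2 CPM in the lower libraries, with a log2 change of 7.75 ± 0.99 (SE, adjusted p = 0.0173 by edgeR). It was among the highest of all upper-high loci, and its counts were within 1% of those of Os01g0520500, so reads may be shared between them. Os01g0291500 and Os01g0291733, with log2 changes of 8.21 and 8.04, also ran close together in every library.

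Os06g0220300, Os11g0543500, Os04g0332700, Os10g0113100 and Os04g0557800 had log2 changes of 8.19, 8.06, 7.91, 7.75 and 7.75. Os02g0801255, Os10g0113100 and Os04g0557800 were among the loci that would not have passed the low-count filter on the lower libraries alone. Os04g0332700 varied among the upper libraries, at 263, 2845 and 784 CPM, and stayed at 6.13 CPM or less in the lower ones. Os01g0124650, the remaining locus of highest mean level, was at 1221, 2249 and 2152 CPM in the upper and 7.79, 16.4 and 129 CPM in the lower libraries. Its counts were within 1% of those of Os01g0124700, so its reads may be shared too. Without replicate 2, Os02g0801255, Os01g0291500, Os06g0220300, Os11g0543500, Os04g0332700 and Os10g0113100 were among the loci still called, and Os01g0520340, Os04g0557800 and Os01g0124650 were not.

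On the side of the lower part, Os03g0103000 had the largest change at that level, with 3.18, 0.493 and 0.415 CPM in the upper and 12.1, 12.7 and 7.70 CPM in the lower libraries. The log2 change was -3.51 ± 0.63 (SE, adjusted p = 0.0323 by edgeR), and the groups did not overlap. With 9 counts in upper replicate 3, Os03g0103000 would not have passed the low-count filter on the upper libraries alone. Os07g0578300 was at 82.5, 54.6 and 1.89 CPM in the upper and 253, 555 and 50.9 CPM in the lower libraries, with a log2 change of -3.21 and replicate 3 lowest in each part. The other 7 loci without a name here, Os08g0551200, Os05g0476400, Os02g0288600, Os04g0532400, Os07g0190600, Os05g0530701 and Os03g0161600, had log2 changes from -3.10 to -2.82. Os04g0532400, with 7 counts in upper replicate 3, would not have passed that filter either. Os02g0771600, the locus of high level in the lower part, was at 112, 58.4 and 63.6 CPM in the upper and 265, 316 and 268 CPM in the lower libraries, with a log2 change of -1.92 ± 0.34 (SE, adjusted p = 0.0306 by edgeR). Os04g0657100, the last of the high-level loci, had a log2 change of -1.75. None of these lower-high loci was called without replicate 2, where no locus was called in that direction.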

How the data were processed

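The authors deposited whole-number counts per gene and library, without normalization. The submitters' processing notes name STAR (aligner), featureCounts (counter), DESeq2 and the build IRGSP-1.0; use of strand in counting is not stated in those notes. Libraries were made with a strand-specific kit, per the labels' protocols. The table has 38726 features, of which 3147 had no count in the 6 libraries. Of its 6 upper and lower columns each was matched to a sample by name. Depth limits low genes, and 28 of 297 listed loci had too few libraries above the low-count cutoff to be tested. Among these, OsMAS reached 34.1 CPM in upper replicate 1 alone.

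Genes were filtered with filterByExpr and tested in edgeR 4.0.16 (R 4.3.3, limma 3.58.1) with TMM, the replicate number as block and 2 residual degrees of freedom. The libraries were paired by replicate number. Same-numbered libraries deviated together from their part means (correlations 0.332, 0.636 and 0.622, and at most 0.0618 for unlike numbers). Such deviations sum to 0 within a part, which lowers the values for unlike numbers where those for like numbers are positive. These correlations come from the same counts as the calls and are no separate test of the pairing. Alternatives were DESeq2 1.42.0, other scalings and filters, a test against a 2-fold change, no block, and leaving out each replicate. On simulated counts the fit called 4, 39, 48 and 50 of 50 genes changed 2-, 4-, 8- and 16-fold, with 15 false calls among 29463 genes. These counts were drawn from the fitted model, and the changed genes were chosen among those with a mean fitted count of at least 50.

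The deposited files give RAP locus identifiers without names. Symbols were paired with identifiers from rice nomenclature, and a pairing was used only where RefSeq (assembly ASM3414082v1) lists that symbol on the same chromosome and in the same order. Of 418 loci in 34 lists, 297 were used; 110 had a symbol that RefSeq does not list. This checks a pairing but does not prove it, least among neighbouring paralogs. The members and lists were chosen with earlier results of these data known, and 10 lists (KNOX, growth-regulating factors, YABBY, HD-Zip III, SPL, ARGONAUTE, DNA methylation and Polycomb, meristem regulators, immune receptors and signalling, ethylene synthesis) and the 2 pollen genes were added after values were seen. Named loci are the 10 most changed in each direction at 10 CPM or more, up to 4 called members of each list or the 2 of highest level where none was called, DL, OsMADS3, OsMADS58, OsMADS13 and OsMADS21, and the 3 called loci of highest mean level in each direction. Other genes named were chosen after their values were seen.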

Additional observations from a re-analysis of the deposited data

How the results depend on the processing

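Counts of genes higher in the upper and in the lower part were 1529 and 902. Leaving out 1 replicate gave 98 to 2289 and 0 to 1265, lowest without replicate 2. Without the replicate block, which drops the pairing of libraries, the counts were 242 and 1 (2310 and 1834 at an unadjusted p below 0.05), all of them among those called with it. DESeq2 with the block called 3655 and 2137, holding 1520 and 902 of the edgeR calls. A test against a 2-fold change gave 335 and 15. Library size as the only scaling gave 2993 for the lower part. Other scalings and filters stayed within 1.5 times.

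Of 89 named loci, 60 were called, and 0 of these 60 changed direction under any alternative run. Of the 60, 44 lost their call without the block and 53 without replicate 2. Of the 29 that were not called, 10 changed sign under at least 1 alternative, and 0 were called where they did. When counts were scaled by library size alone, the log2 change became -0.24 for HSP18.0, -0.14 for SLR1, -0.23 for OsSPL6, -0.27 for OsBEI, -0.27 for OsSPL12, -0.27 for UDT1, -0.0019 for ROC1 and -0.18 for CAB1R. Without the block that of CAB1R became -0.63. Leaving out 1 replicate gave log2 changes of -0.27 to 0.37 for HSP18.0, -0.36 to 0.12 for OsGI, -0.0072 to 0.10 for OsBEI, -0.15 to 0.41 for OsSPL12, -0.36 to 0.041 for HSP101, -0.11 to 0.17 for UDT1 and -0.19 to 0.72 for CAB1R. The causes were not tested. With 3 pairs and 2 residual degrees of freedom, most 2-fold changes cannot be detected.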
